A study of Mus musculus with 12 samples.

Results

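Interleukins and their receptors were described across 12 mouse RNA-seq libraries. Every gene whose symbol began with Il and a digit was taken, which gave 59 of the 22317 genes in the count table. Of these, 35 encode receptor chains, 19 encode ligands, 3 encode decoy receptors or binding proteins that hold a ligand back (Il1r2, Il13ra2 and Il18bp), and 2 are neither (the amino acid oxidase Il4i1 and the antisense transcript Il1bos). A mean of 1 CPM or more in at least 1 group was reached (CPM are counts scaled to a common library total, with TMM factors for composition) by 48 of the 59, namely 31 receptors, 14 ligands and all 3 decoys or binding proteins. The other 11 stayed under 1 CPM in every group: Il17c, Il1bos, Il20ra, Il22, Il22ra1, Il23a, Il25, Il31ra, Il4i1, Il5 and Il5ra.

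The animals were wild-type male BALB/c mice, 8 weeks old, in which a small vessel bed was closed by photothrombosis, a laser-induced clotting of vessels that hold a light-sensitive dye. Each of the 4 groups had 3 libraries. SB2 and SB4 are labelled as brain cortex on day 2 and day 4 after injury of the skull, and BS2 and BS6 as interparietal bone on day 2 and day 6 after injury of the brain. All groups therefore came from injured animals, and no uninjured control was analysed here. The study names 3 biological replicates per condition, while the labels do not tie a library to an animal.

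The tissue markers went against the label in 2 of the groups. The summed level of 12 neuronal markers was 144 to 195 CPM in the libraries labelled SB2 and 169 to 221 CPM in BS6, against 13900 to 14900 CPM in SB4 and 13500 to 13900 CPM in the libraries labelled BS2. The 9 osteoblast and osteocyte markers in the table summed to 39700 to 45200 CPM in SB2 and 22500 to 83200 CPM in BS6, against 24.5 to 28.2 CPM in SB4 and 25.4 to 37.3 CPM in BS2. The libraries labelled SB2 thus held bone transcripts although labelled brain cortex, and those labelled BS2 held brain transcripts although labelled interparietal bone. SB2 and BS6 are called bone-rich below and SB4 and BS2 brain-rich, after these markers. In SB4 against SB2 and in BS6 against BS2, the day and the tissue content cannot be told apart. Whether the labels or the columns of SB2 and BS2 were exchanged was not tested, so every comparison below names the groups as labelled. Total counts ran from 14126082 to 18972654 per library, and a gene with no read could still have been present at up to 3 counts, which corresponded to 0.163 to 0.218 CPM.

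Interleukins are secreted or released proteins by which leukocytes, stromal cells and nerve tissue signal to each other. Members of the interleukin-1 family act through receptors with an intracellular TIR domain and the adaptor Myd88, whereas most other interleukins act through receptor chains that carry JAK kinases and activate STAT factors. Several ligands share a chain: Il6st (gp130) serves interleukin-6, interleukin-11 and related cytokines, and Il2rg (the common gamma chain) serves interleukins 2, 4, 7, 15 and 21. In bone these cytokines govern the making of osteoclasts and of blood cells, and in the injured brain interleukin-1 and interleukin-6 are the classical inflammatory signals. In bulk tissue, fewer cells of a type and less RNA per cell cannot be told apart.

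The 59 genes together made up 1670 to 1850 CPM in SB2 and 1410 to 1850 CPM in BS6, but only 457 to 481 CPM in SB4 and 423 to 445 CPM in BS2. The bone-rich libraries lay above the brain-rich ones with no overlap. Il6st alone held 37.3% to 41.7% of the interleukin counts in 5 of the 6 bone-rich libraries and 26.3% in BS6 replicate 2, and 24.4% to 27.9% in the 6 brain-rich ones. Per kilobase of exon (RPKM, from these CPM and the annotated exon length), Il6st was the highest of the genes in SB2 at 65 RPKM, followed by Il33 at 56.9, Il13ra1 at 29.8 and Il11ra1 at 26. In BS6 it was again the highest at 49 RPKM, followed by Il11ra1 at 27.5 and Il33 at 25.3. The brain-rich groups had another order: Il34 led with 22.7 RPKM in SB4 and 22.6 in BS2, followed by Il4 with 20.6 and 17.2, Il18 with 14.9 and 15.8 and Il17d with 14 and 13. Il6st came next there, with 11 and 10.3 RPKM. The rank of Il4 is that of the counts listed for it, and whether these come from Il4 transcripts was not tested.

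**Figure D1:**
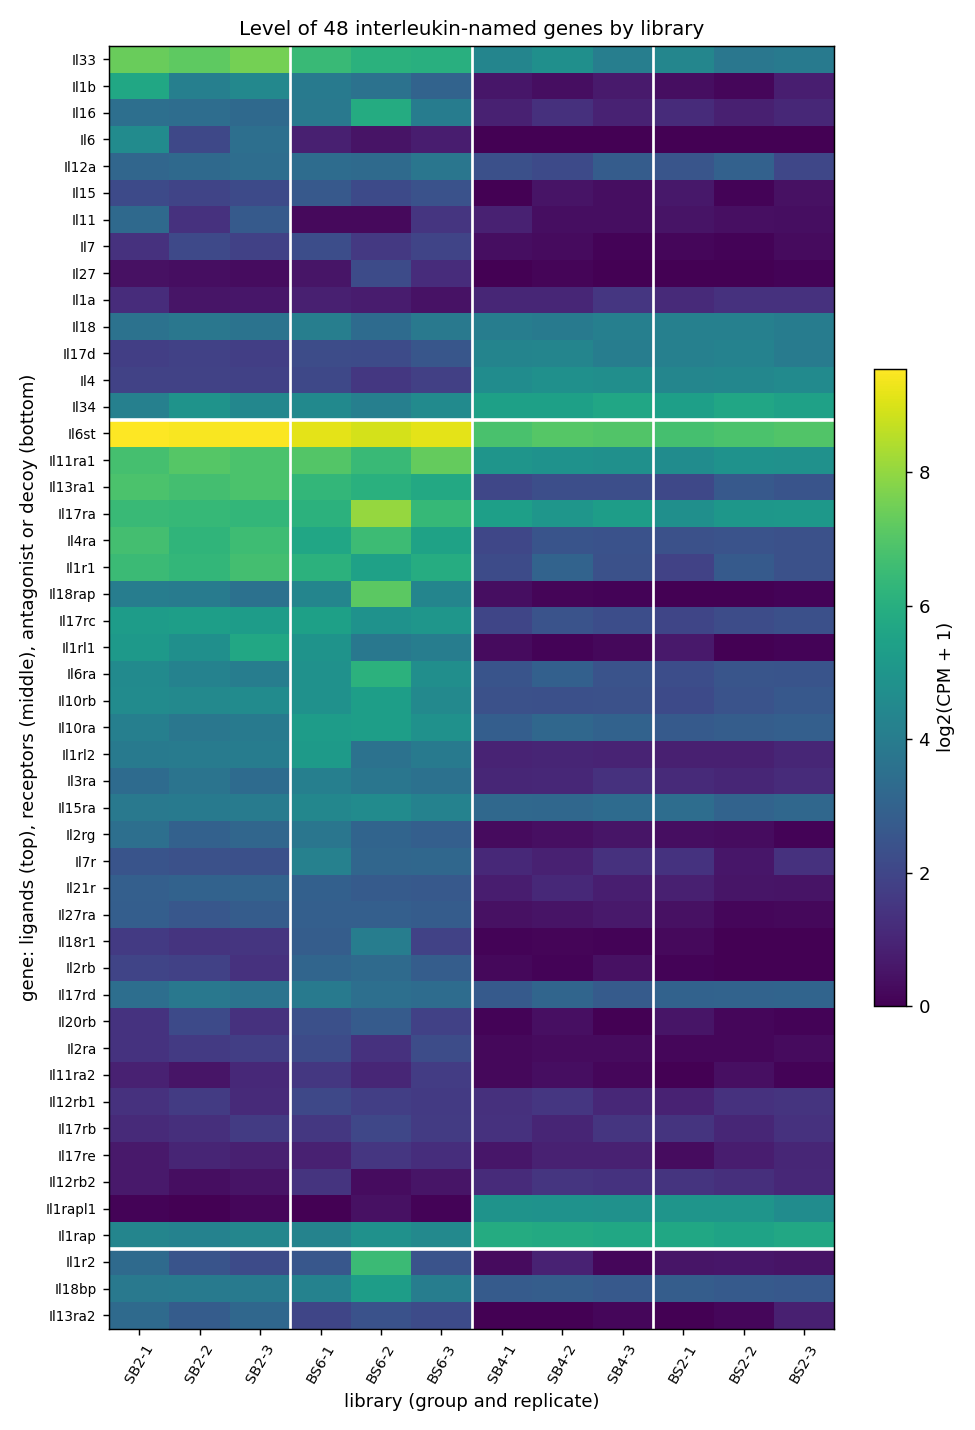
Level of the 48 interleukin genes that reached 1 CPM in at least 1 group, as log2(CPM + 1), with libraries as columns and genes as rows. White lines separate the groups, and ligands (top), receptors (middle) and decoys or binding proteins (bottom). Most rows are bright in the 6 columns of SB2 and BS6 and dark in the 6 of SB4 and BS2, while Il1rapl1, Il1rap, Il4, Il17d and Il34 run the other way.

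In SB4 against SB2, 46 of the 59 genes had enough counts to be tested. Of these, 31 were lower in SB4 and 6 were higher, at an adjusted p under 0.05 (edgeR quasi-likelihood test, Benjamini-Hochberg over all genes) and an absolute log2 fold change over 1, and 9 were not called. Among all 17293 genes tested, 28.6% were called lower and 27.8% higher. The median log2 fold change of the 46 was -2.98, against -0.01 over all genes. The libraries of the groups did not overlap for 35 genes on the lower side and 7 on the higher side, against 43.1% and 42.4% of all genes. By role, 21 of 30 receptors, 7 of 13 ligands and 3 of 3 decoys or binding proteins were lower, and 3 receptors and 3 ligands were higher. A gene could have enough counts through SB2 or SB4 alone, so some genes entered only through the group where they were high. With at least 10 counts required in every library, 27 genes were tested, of which 16 were lower and 4 higher.

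In BS6 against BS2, 45 genes were tested, of which 33 were higher in BS6, 6 were lower and 6 were not called. Of all 17311 genes, 29% were called higher and 26.5% lower. The median of the 45 was 3.26 on the log2 scale, against 0.02 over all genes. The libraries did not overlap for 36 genes on the higher side and 6 on the lower side, against 39.7% and 41% of all genes. Higher were 24 of 31 receptors, 6 of 11 ligands and 3 of 3 decoys or binding proteins, and lower were 2 receptors and 4 ligands. Here too, some genes had enough counts only through the group where they were high. With at least 10 counts required in every library, 25 genes were tested, of which 17 were higher and 4 lower. Without BS6 replicate 2, which stood apart from its group, 34 genes were higher and 5 lower. The comparisons over time share no library, and 29 genes were called lower in SB4 and higher in BS6, while 5 were called higher in SB4 and lower in BS6. The share of all genes with such a pair of opposite calls is not given here. Whether the pairing is particular to the interleukin genes cannot be read from these counts. By edgeR, another 5 were called in neither, and the filter on low counts left 12 out of both comparisons. Of these, DESeq2, run without the filter, called Il20ra and Il22ra1 lower in SB4. It called Il17c, Il20ra, Il27, Il31ra and Il5ra higher in BS6. Where a pair of log2 fold changes is given for a gene, the former is SB4 against SB2 and the latter BS6 against BS2, and both passed the test unless stated.

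**Figure D2:**
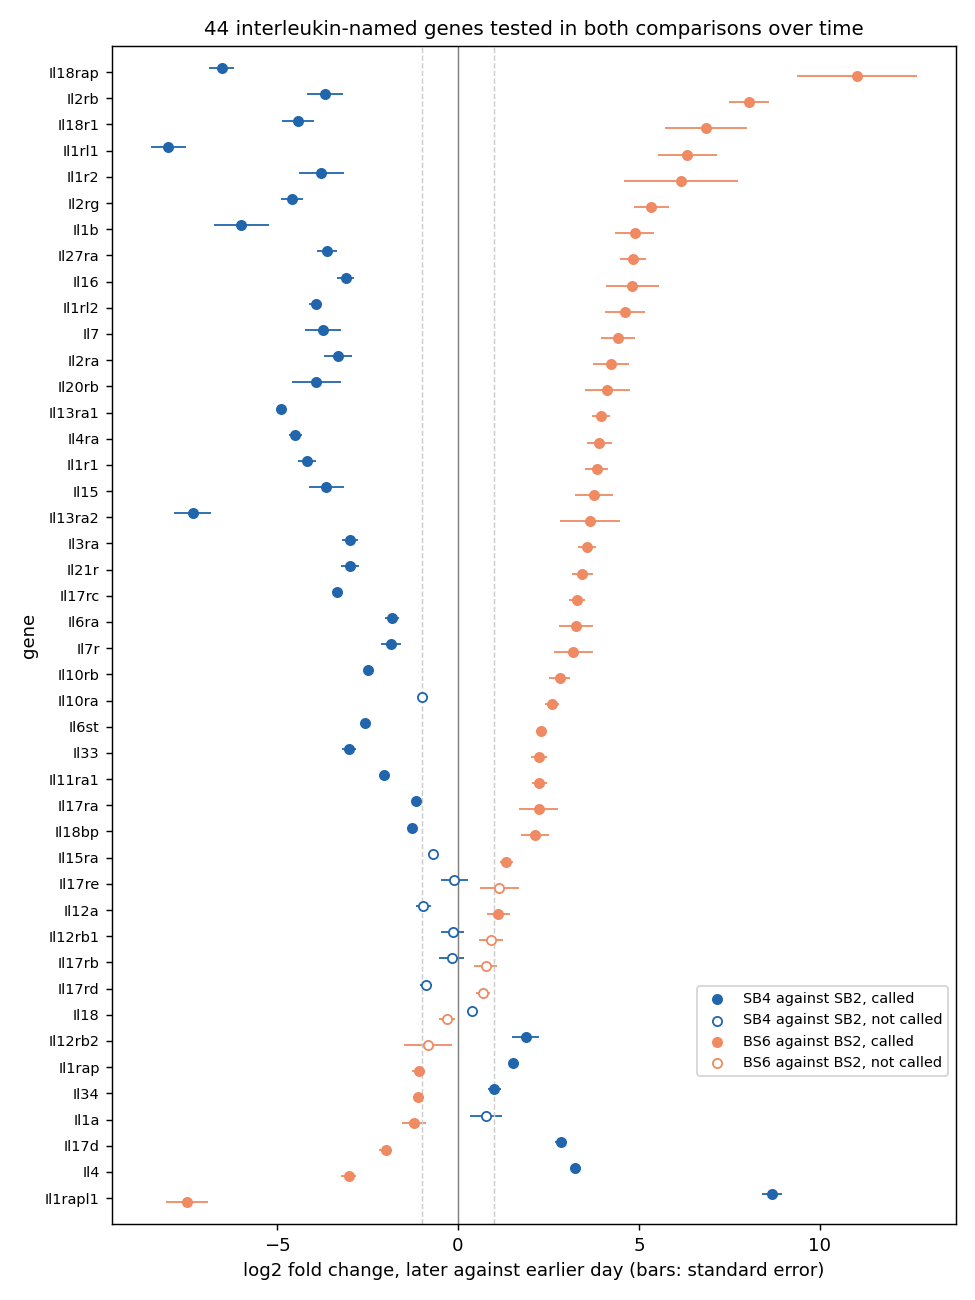
Log2 fold change (x axis) of the 44 interleukin genes tested in both comparisons over time (y axis), for SB4 against SB2 in blue and BS6 against BS2 in orange, 3 libraries per group. Filled points passed the test, open points did not, bars are standard errors and dashed lines mark an absolute log2 fold change of 1. For most genes the blue point lies left of 0 and the orange point right of it. Toward the bottom, Il1rapl1, Il4, Il17d, Il34 and Il1rap show the reverse with both points filled. Il1a, Il12rb2 and Il18 also show the reverse there, but without both points filled.

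Among the ligands, Il6 was counted in bone-rich libraries only. It is an acute inflammatory cytokine that signals through Il6ra and Il6st. Its level was 23.2, 3.2 and 10.1 CPM in the 3 SB2 libraries and 0.782, 0.423 and 0.7 CPM in BS6, and no read was counted in any of the 6 SB4 and BS2 libraries. SB2 was thus above the other groups throughout, but its own libraries differed 7.27-fold between replicates 1 and 2. Il6 was at least 57.3-fold lower in SB4 than in SB2 against the limit of 3 counts per library (fitted log2 fold change -10.67, SE 2.55, edgeR adjusted p = 0.0421). That call was lost without SB2 replicate 3 (adjusted p = 0.165) and without SB4 replicate 1, 2 or 3 (adjusted p of 0.0586, 0.0653 and 0.0622), and the fitted value was -9.78 without SB2 replicate 1. In BS6 it was at least 2.91-fold higher than in BS2. The filter on low counts left it out of the edgeR test there, while DESeq2 called it higher (adjusted p = 8.79e-05).

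Il1b, the inducible interleukin-1 ligand of myeloid cells, was also high in the bone-rich libraries. Its level was 50.2, 16.6 and 21.2 CPM in SB2 and 14.1, 11.2 and 7.32 CPM in BS6. In SB4 it was 0.497, 0.272 and 0.613 CPM and in BS2 0.295, 0.128 and 0.726 CPM. The bone-rich libraries lay above all brain-rich ones. Il1b was lower in SB4 than in SB2 (log2 fold change -5.98, SE 0.75, edgeR adjusted p = 0.000826; -5.35 without SB2 replicate 1) and higher in BS6 than in BS2 (4.88, SE 0.54, adjusted p = 0.000259; 5.64 without BS2 replicate 3). Il11, a gp130 ligand with roles in bone formation, was 8.6, 1.6 and 5.56 CPM in SB2, 0.196, 0.181 and 1.78 CPM in BS6, 0.851, 0.272 and 0.279 CPM in SB4 and 0.413, 0.32 and 0.291 CPM in BS2. BS6 replicate 3 lay above SB2 replicate 2, so these groups overlapped. Il11 was lower in SB4 than in SB2 (log2 fold change -3.55, SE 0.77, edgeR adjusted p = 0.00427; -4.21 without SB4 replicate 1). In BS6 against BS2 the filter on low counts left it out of the edgeR test, and DESeq2 did not call it (log2 fold change 1.09, adjusted p = 0.378). BS6 replicates 1 and 2 lay below every SB4 and BS2 library. In all of Il6, Il1b and Il11, SB2 replicate 1 was the highest and SB2 replicate 2 the lowest of the group, an order found in 10 of the 42 interleukin genes at a mean of 1 CPM or more in SB2 (23.8%), among them Il4ra, Il10ra and Il6st, and in 18.1% of all 15154 genes at that level.

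The 250 bases before the annotated start of these 3 ligands are shown because they were the 3 of those 42 genes at which SB2 replicate 1 was at least 3 times as high as replicate 2, which 0.792% of all genes at that level were. The sequences are from RefSeq on GRCm38.p6, and 47 of the 59 symbols had such a window. Capitals mark matches, on either strand, to a letter pattern of NF-kappa-B (GGGA, any base, TTTCC) or AP-1 (TGANTCA).
Il6, chr5:30012864-30013113, plus strand: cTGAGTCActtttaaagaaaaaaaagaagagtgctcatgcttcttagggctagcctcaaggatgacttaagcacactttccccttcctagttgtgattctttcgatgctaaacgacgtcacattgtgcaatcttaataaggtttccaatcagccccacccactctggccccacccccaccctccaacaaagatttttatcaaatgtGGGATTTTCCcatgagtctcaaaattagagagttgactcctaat
Il1b, chr2:129371140-129371389, minus strand: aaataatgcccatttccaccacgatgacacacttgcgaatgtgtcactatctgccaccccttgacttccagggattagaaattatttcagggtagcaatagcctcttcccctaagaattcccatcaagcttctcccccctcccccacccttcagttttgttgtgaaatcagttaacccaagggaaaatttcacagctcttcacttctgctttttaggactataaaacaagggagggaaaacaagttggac
Il11, chr7:4778142-4778391, minus strand: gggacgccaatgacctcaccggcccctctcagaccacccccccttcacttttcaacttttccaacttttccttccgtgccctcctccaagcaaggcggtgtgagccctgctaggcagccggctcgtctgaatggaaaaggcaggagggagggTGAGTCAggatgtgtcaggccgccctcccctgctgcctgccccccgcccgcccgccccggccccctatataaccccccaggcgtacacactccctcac
The Il6 window held the NF-kappa-B pattern with its first base at position -44 from the start, and the AP-1 pattern at -249. The Il11 window held AP-1 at -98, and a window at another annotated Il11 start, chr7:4782858-4783107, held neither pattern. Neither was found in the Il1b window. The NF-kappa-B letters occurred in 0.356% of 32851 mouse windows of this length and the AP-1 letters in 6.75%. Of the 59 windows of interleukin genes, 2 held the NF-kappa-B letters (Il6 and Il16) and 10 the AP-1 letters. A match of letters is a description of the sequence and not a measured site.

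Il33, an alarmin kept in the nucleus of stromal and glial cells, was the most abundant ligand of the bone-rich groups. Its level was 165, 143 and 185 CPM in SB2 and 87.3, 68.1 and 64 CPM in BS6, above 19.4, 26.1 and 15.9 CPM in SB4 and 20, 12.7 and 14.5 CPM in BS2. No library of a bone-rich group overlapped with one of a brain-rich group. The log2 fold change was -3.0 in SB4 against SB2 (SE 0.19, edgeR adjusted p = 4.86e-06) and 2.25 in BS6 against BS2 (SE 0.22, adjusted p = 0.000141). Its receptor Il1rl1 (ST2), found on mast cells and type 2 lymphoid cells among others, was 34.6, 25.8 and 52 CPM in SB2 and 28.8, 13.2 and 15.6 CPM in BS6. In the brain-rich libraries Il1rl1 ranged from 0 to 0.59 CPM. The fold changes were -8.00 (SE 0.49, edgeR adjusted p = 3.01e-06) and 6.34 (SE 0.81, adjusted p = 0.000488), and the latter was 8.84 without BS2 replicate 1. The summed level of 7 mast cell and basophil markers was 118 to 132 CPM in SB2 and 80.7 to 283 CPM in BS6, against 38.5 to 48.9 CPM in SB4 and 43.4 to 45.7 CPM in BS2. Nearly all of the brain-rich sum was Kit, a receptor that other cells also carry, at 37.9 to 48.4 CPM in SB4 and 42.3 to 44.8 CPM in BS2. The mast cell proteases Cpa3, Tpsb2, Mcpt4 and Cma1 had means of 19.3 to 27.2 CPM in the bone-rich groups and of 0.0439 CPM or less in the brain-rich ones. The part of these cells in the Il1rl1 level was not tested.

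Several lymphoid and myeloid ligands were higher in bone-rich libraries at lower levels. Il16, a chemoattractant for CD4-bearing cells, was 10.3, 9.72 and 8.55 CPM in SB2 and 13.4, 57.4 and 15 CPM in BS6, against 0.768 to 1.52 CPM in the brain-rich libraries. Its log2 fold change was -3.10 in SB4 against SB2 (SE 0.24, edgeR adjusted p = 2.48e-07) and 4.82 in BS6 against BS2 (SE 0.74, adjusted p = 0.00114), or 3.80 without BS6 replicate 2. The opposite gene Stard5 overlaps 15.3% of the Il16 exon bases. Without knowledge of strand, reads of the 2 genes cannot be told apart in that part. Il7, the survival factor that stroma supplies to lymphocytes, had means of 2.49 ± 0.842 CPM in SB2 and 2.88 ± 0.894 CPM in BS6 (SD, n = 3) against 0.186 and 0.133 CPM in SB4 and BS2. Il15, which supports natural killer cells, had means of 3.27 ± 0.354 and 4.35 ± 0.982 CPM (SD, n = 3) against 0.238 and 0.319 CPM. Both were called lower in SB4 (log2 fold change -3.73 for Il7 and -3.64 for Il15) and higher in BS6 (4.42 and 3.76). For Il15 the values were -4.32 without SB4 replicate 2 and 4.36 without BS2 replicate 1.

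Il12a, a subunit of interleukin-12 and interleukin-35, differed less. It was 7.8, 8.72 and 9.59 CPM in SB2, 9.45, 8.82 and 12.5 CPM in BS6, 4.04, 3.48 and 5.79 CPM in SB4 and 4.66, 6.72 and 3.12 CPM in BS2. The call of a higher level in BS6 (log2 fold change 1.12, SE 0.31, edgeR adjusted p = 0.0143) was lost without BS6 replicate 3 (0.96), BS2 replicate 1 (1.07, adjusted p = 0.0545) or BS2 replicate 3 (0.88). In SB4 against SB2 the value was -0.96, under the fold threshold, and it passed under upper-quartile scaling (-1.09), by total counts (-1.05) and without SB2 replicate 1 (-1.04) or SB4 replicate 3 (-1.20). Il27, the subunit that pairs with Ebi3, was at 0.456, 3.56 and 1.34 CPM in BS6 and at a mean of 0.284 CPM or less elsewhere. The filter on low counts left it out of the edgeR comparisons over time, while DESeq2, run without it, called it higher in BS6 than in BS2 (adjusted p = 6.09e-05). The BS2 libraries held 1 count together, which puts the ratio of BS6 to BS2 at 84.7 with a 95% counting interval of 14.8 to 3380, and at 41.8 (6.91 to 1710) without BS6 replicate 2. Its BS6 level was led by replicate 2.

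Several ligands were level or higher in the brain-rich libraries. Il34, which shares the receptor Csf1r with Csf1 and maintains microglia, was 42.6, 41.6 and 49.1 CPM in SB4 and 41.5, 48.9 and 42.7 CPM in BS2, above 16.7, 29.2 and 20.7 CPM in SB2 and 21.9, 16.6 and 22.6 CPM in BS6. It was called higher in SB4 (log2 fold change 1.01, SE 0.19, edgeR adjusted p = 0.00104) and lower in BS6 (-1.09, SE 0.15, adjusted p = 0.000653). The fold stood near the threshold: the call in SB4 was lost under upper-quartile scaling (0.88), by total counts (0.92), without a filter (0.98), in 1 fit of all 12 libraries (1.0), without SB2 replicate 1 (0.84) or 3 (0.97) and without SB4 replicate 3 (0.94), and that in BS6 without BS6 replicate 2 (-0.96). Csf1, the other ligand of Csf1r, went the opposite way, with means of 196 ± 12.9 CPM in SB2, 116 ± 30.5 in BS6, 19.1 ± 3.46 in SB4 and 17.1 ± 1.17 in BS2 (SD, n = 3).

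Il17d, a little-studied ligand of the interleukin-17 family, was 18.8, 19.3 and 15.5 CPM in SB4 and 16.8, 18 and 14.9 CPM in BS2, against 2.45, 2.6 and 2.38 CPM in SB2 and 3.65, 3.56 and 4.9 CPM in BS6. The groups did not overlap between bone-rich and brain-rich. It was higher in SB4 (log2 fold change 2.85, SE 0.16, edgeR adjusted p = 1.07e-08) and lower in BS6 (-2.0, SE 0.18, adjusted p = 0.000106). Il18, an interleukin-1 family ligand made as an inactive precursor, was close to level: 11, 12.7 and 11.5 CPM in SB2, 16, 9 and 13.7 CPM in BS6, 15.4, 14.2 and 16.5 CPM in SB4 and 16.8, 16.9 and 15.2 CPM in BS2. Its values were 0.39 (SE 0.12, edgeR adjusted p = 0.00923) in SB4 against SB2 and -0.30 (SE 0.22, adjusted p = 0.257) in BS6 against BS2, both under the fold threshold. Il1a was low throughout, with means of 0.755 CPM in SB2, 0.61 in BS6, 1.31 in SB4 and 1.46 in BS2. Its call in BS6 against BS2 (-1.21, SE 0.34, edgeR adjusted p = 0.0171) was lost without BS6 replicate 3 (-0.96), BS2 replicate 2 (adjusted p = 0.0572) or BS2 replicate 3 (adjusted p = 0.0583). In SB4 against SB2 Il1a was at 0.78 and not called, and at 1.45 and called without SB2 replicate 1.

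Il4, the defining cytokine of type 2 helper T cells and mast cells, was counted at 24.2, 26.5 and 25.1 CPM in SB4 and 20.1, 20.5 and 22.7 CPM in BS2, against 2.73, 2.66 and 2.63 CPM in SB2 and 3.2, 1.93 and 2.48 CPM in BS6. The log2 fold change was 3.24 in SB4 against SB2 (SE 0.12, edgeR adjusted p = 4.7e-10) and -3.02 in BS6 against BS2 (SE 0.21, adjusted p = 3.36e-05). In mm10 the gene lies on the minus strand of chr11:53602982-53618669, and its annotated 3' end is 1014 bases from the end of Kif3a, a kinesin gene on the opposite strand. Kif3a was at 195 ± 2.86 CPM in SB4 and 203 ± 10.7 CPM in BS2, against 24.3 ± 0.646 in SB2 and 23.2 ± 8.36 in BS6 (SD, n = 3). Its fold changes were 3.02 (SE 0.06) and -3.10 (SE 0.28). The 6 T cell markers in the table summed to 1.92 to 3.19 CPM in the brain-rich libraries and 10.4 to 25.5 CPM in the bone-rich ones. Whether the counts listed for Il4 come from Il4 transcripts was not tested.

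**Figure D3:**
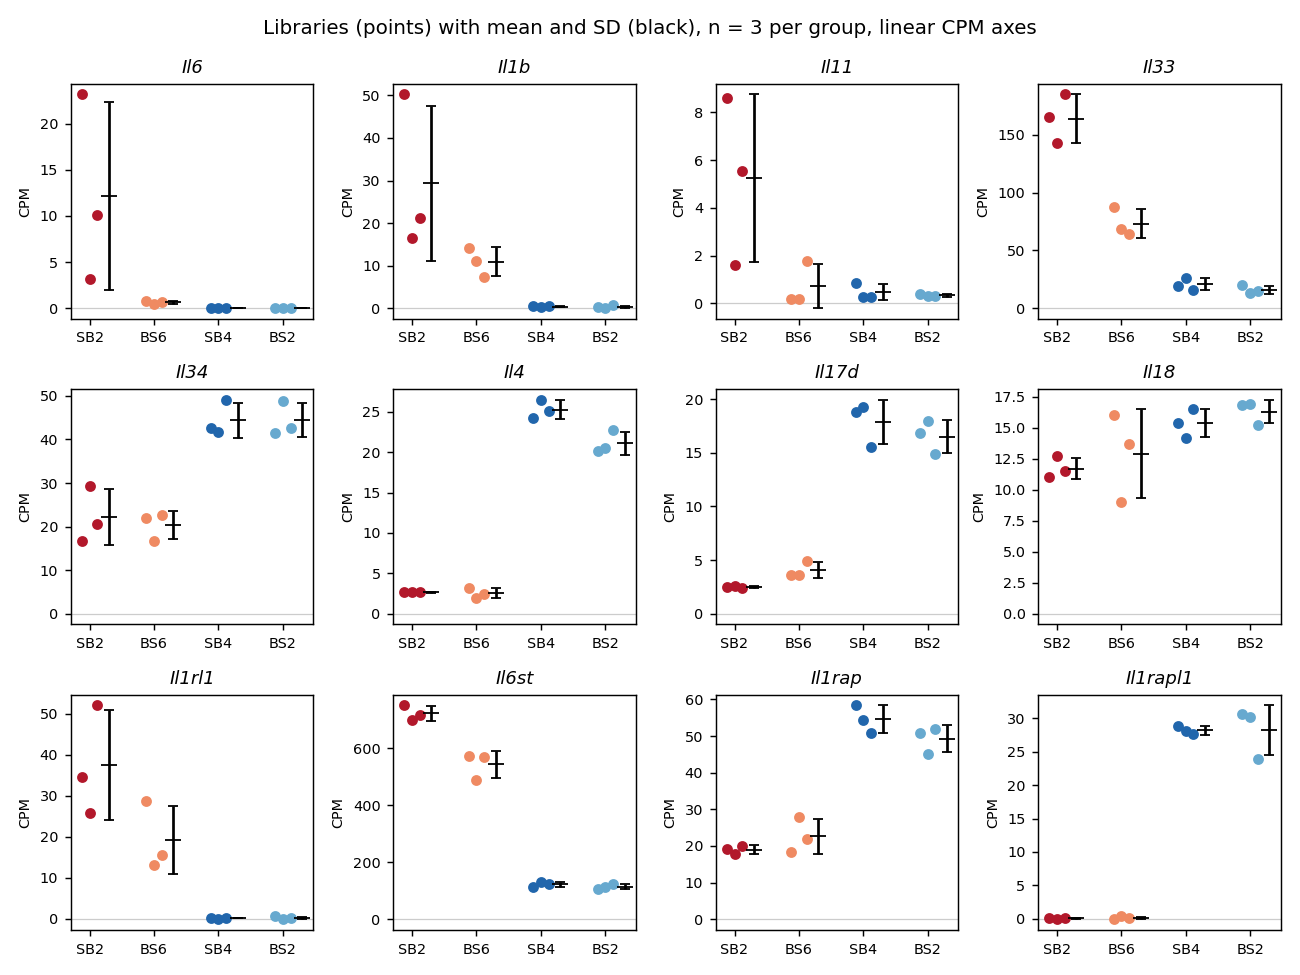
CPM on linear axes of 12 interleukin genes in each library (points) by group, with the mean and SD of 3 libraries in black. Il6, Il1b, Il11, Il33, Il1rl1 and Il6st are high in SB2, Il34, Il4, Il17d, Il1rap and Il1rapl1 are high in SB4 and BS2, and Il18 lies between 9 and 16.9 CPM in all libraries.

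Of the gp130 family receptors, Il6st, Il6ra, Il11ra1 and Il27ra were lower in SB4 than in SB2 and higher in BS6 than in BS2. Il6st was 750, 697 and 717 CPM in SB2 and 574, 488 and 569 CPM in BS6, above 112, 130 and 125 CPM in SB4 and 106, 113 and 124 CPM in BS2. The fold changes were -2.56 (SE 0.08, edgeR adjusted p = 9.84e-11) and 2.29 (SE 0.12, adjusted p = 1.39e-05). Il6ra, the ligand-binding chain for interleukin-6, was 22.6, 17.7 and 15.5 CPM in SB2 and 27.8, 69.1 and 25.1 CPM in BS6, against 3.78 to 6.69 CPM in the brain-rich libraries. It was lower in SB4 (log2 fold change -1.82) and higher in BS6 (3.26, or 2.63 without BS6 replicate 2). Il11ra1, which binds interleukin-11, was 105, 129 and 114 CPM in SB2 and 126, 87.9 and 155 CPM in BS6, against 24 to 30.2 CPM in the brain-rich libraries (log2 fold change -2.03 and 2.25). Il27ra had means of 5.69 ± 0.581 and 6.22 ± 0.369 CPM in SB2 and BS6 (SD, n = 3), against 0.449 and 0.209 CPM in SB4 and BS2 (log2 fold change -3.62 and 4.85, the latter 5.45 without BS2 replicate 1). Il11ra2, a close paralogue of Il11ra1 with which reads can be shared, was 0.854, 0.466 and 1.16 CPM in SB2 and 1.89, 1.03 and 2.23 CPM in BS6, against 0 to 0.32 CPM. It was called in BS6 (log2 fold change 3.68, or 3.05 without BS2 replicate 1 and 5.41 without BS2 replicate 2), and the filter on low counts left it out of the edgeR test in SB4. The remaining receptor, Il31ra, stayed under a mean of 1 CPM in every group, and the filter left it out of edgeR in both comparisons over time. Its SB2 and SB4 libraries overlapped, and DESeq2 did not call it there (adjusted p = 0.524). Its BS6 libraries lay above those of BS2, and DESeq2 called it higher in BS6 (log2 fold change 2.06, adjusted p = 0.00948).

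The receptors of interleukin-4 and interleukin-13 moved in the direction opposite to the counts listed for Il4. Il4ra, the shared chain, was 103, 74.5 and 96.3 CPM in SB2 and 48.9, 93.8 and 44.8 CPM in BS6, against 3.05 to 4.57 CPM in the brain-rich libraries (log2 fold change -4.49 and 3.91). Il13ra1, its partner for interleukin-13, was 114, 104 and 114 CPM in SB2 and 79.1, 66.2 and 53.6 CPM in BS6, against 3.05 to 5.38 CPM. It was lower in SB4 (log2 fold change -4.90, SE 0.11, edgeR adjusted p = 6.24e-12) and higher in BS6 (3.95, SE 0.25, adjusted p = 2.43e-05). The decoy Il13ra2, which binds interleukin-13 without JAK signalling, was 8.77, 5.79 and 8.12 CPM in SB2 and 3, 4.35 and 3.5 CPM in BS6. It had 2 counts in all of SB4, which gave a ratio of SB2 to SB4 of 193 (95% counting interval 53 to 1600). The fitted value was -7.33 (SE 0.51, edgeR adjusted p = 9.08e-08), and it was -6.74 without SB4 replicate 2 and -9.94 without SB4 replicate 3.

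The chains that lymphocytes use for interleukins 2, 7, 15 and 21 were also higher in bone-rich libraries. Il2rg, the common gamma chain, was 10.1, 6.79 and 7.94 CPM in SB2 and 12.3, 7.49 and 6.43 CPM in BS6, against 0.0726 to 0.446 CPM in the brain-rich libraries (log2 fold change -4.59, SE 0.30, edgeR adjusted p = 5.69e-08; and 5.34, SE 0.48, adjusted p = 9.71e-05). Il2rb, shared by the receptors of interleukins 2 and 15, was 2.9, 2.6 and 1.59 CPM in SB2 and 7.63, 8.94 and 6.11 CPM in BS6, with 1 count in all of BS2. The ratio of BS6 to BS2 was 351 (95% counting interval 62.7 to 13900), and the fitted value was 8.04 (SE 0.55, edgeR adjusted p = 3.25e-05), or 9.87 without BS2 replicate 1. Il2ra, the chain that raises the affinity for interleukin-2, was 1.65, 2.06 and 2.44 CPM in SB2 and 3.52, 1.57 and 3.69 CPM in BS6, against 0.118 to 0.223 CPM (log2 fold change -3.32 and 4.23, both called). Il2rg and Il10rb share 30.5% and 14.9% of their exon bases with the annotated genes Gm20489 and Gm21970 on the same strand. Il7r, the interleukin-7 receptor, was 4.56, 4.13 and 4.03 CPM in SB2 and 17.5, 7.97 and 8.08 CPM in BS6, against 0.512 to 1.65 CPM. Il21r had means of 6.9 ± 0.365 and 5.91 ± 0.67 CPM in SB2 and BS6 (SD, n = 3) and 0.858 and 0.55 CPM in SB4 and BS2. Il15ra, which presents interleukin-15, differed less: 13.6, 13.9 and 14.7 CPM in SB2, 20.5, 23.4 and 17.9 CPM in BS6, and 7.17 to 9.79 CPM in the brain-rich libraries. It was called in BS6 (log2 fold change 1.34) and was under the fold threshold in SB4 (-0.70).

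Receptors of the interleukin-1 family fell into 2 sets with opposite directions. Il1r1, the signalling receptor of interleukin-1, was 90.3, 78.8 and 103 CPM in SB2 and 68.7, 42.9 and 59.2 CPM in BS6, against 2.71 to 7.28 CPM in the brain-rich libraries (log2 fold change -4.16, SE 0.25, edgeR adjusted p = 2.98e-06; and 3.83, SE 0.31, adjusted p = 6.69e-05). Il1rap, the accessory chain that Il1r1, Il1rl1 and Il1rl2 all need to signal, ran the other way: 19.1, 17.8 and 20 CPM in SB2 and 18.3, 27.8 and 21.8 CPM in BS6, below 58.4, 54.4 and 50.9 CPM in SB4 and 50.9, 45 and 51.9 CPM in BS2. Its fold changes were 1.53 (SE 0.09, edgeR adjusted p = 2.19e-08) and -1.08 (SE 0.18, adjusted p = 0.00144), and the latter was -0.94 and not called without BS6 replicate 1. Il1rapl1, a synaptic adhesion protein of the same family, was 28.9, 28.1 and 27.6 CPM in SB4 and 30.6, 30.2 and 23.9 CPM in BS2, with 3 counts in all of SB2 and 0 to 0.362 CPM in BS6. The ratio of SB4 to SB2 was 459 (95% counting interval 157 to 2230). The fitted values were 8.68 (SE 0.27, edgeR adjusted p = 9.12e-11; 9.53 without SB2 replicate 3) and -7.48 (SE 0.58, adjusted p = 5.92e-05; -9.42 without BS6 replicate 2). Il1rl2, the interleukin-36 receptor, was 13.9, 14.9 and 15.2 CPM in SB2 and 35.6, 11.2 and 14.2 CPM in BS6, against 0.767 to 1.02 CPM (log2 fold change -3.93 and 4.61). The latter was 3.94 without BS6 replicate 1, the library with the high value.

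Both chains of the interleukin-18 receptor were higher in bone-rich libraries, while their ligand was not called. Il18rap, the accessory chain, was 15.4, 14.7 and 10.9 CPM in SB2 and 19.4, 142 and 19.2 CPM in BS6, against 0.0557 to 0.284 CPM in SB4 and 1 count in all of BS2. It was lower in SB4 (log2 fold change -6.53, SE 0.35, edgeR adjusted p = 8.9e-09; -7.23 without SB4 replicate 1). The ratio of BS6 to BS2 was 2880 (95% counting interval 516 to 114000) and the fitted value 11.03 (SE 1.66, edgeR adjusted p = 0.00105; 9.38 without BS6 replicate 2 and 12.93 without BS2 replicate 3). Il18r1, the ligand-binding chain, was 2.11, 1.73 and 1.77 CPM in SB2 and 6.13, 15.5 and 2.67 CPM in BS6, with 3 counts in all of BS2. The ratio of BS6 to BS2 was 127 (95% counting interval 43.2 to 619), and the fitted value 6.85 (SE 1.13, edgeR adjusted p = 0.00163; 5.96 without BS6 replicate 2 and 9.98 without BS2 replicate 1). Il18bp, the soluble antagonist, was 13.6, 13.9 and 14 CPM in SB2 and 17.6, 38.8 and 15.7 CPM in BS6, against 5.23 to 6.08 CPM in the brain-rich libraries (log2 fold change -1.27 and 2.14).

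Of the interleukin-17 receptors, Il17rc had a larger fold change than Il17ra in both comparisons over time, at 37.9, 40.4 and 37.9 CPM in SB2 and 42.3, 27.9 and 31.4 CPM in BS6, against 2.95 to 4.51 CPM in the brain-rich ones (log2 fold change -3.35 and 3.29). Il17ra, its partner for interleukin-17A, was 87.4, 83.8 and 78.3 CPM in SB2 and 70.1, 264 and 84.5 CPM in BS6, against 26.3 to 40.6 CPM. It was lower in SB4 (log2 fold change -1.17, SE 0.10, edgeR adjusted p = 6.42e-07) and higher in BS6 (2.23, SE 0.54, adjusted p = 0.00863; 1.37 without BS6 replicate 2). Il17rd, Il17rb and Il17re were not called in either comparison at the main settings. Il17rd had means of 11.6 ± 1.61 CPM in SB2, 11.4 ± 2.64 in BS6, 6.25 ± 1.14 in SB4 and 7.2 ± 0.196 in BS2 (SD, n = 3), with fold changes of -0.88 (edgeR adjusted p = 0.000596) and 0.70 (adjusted p = 0.0163), both under the fold threshold. The former passed it under upper-quartile scaling (-1.01) and without SB4 replicate 2 (-1.02). Of the interleukin-10 receptor chains, Il10rb was 21.8 to 23.7 CPM in SB2 and 21.4 to 40 CPM in BS6, against 3.48 to 5.16 CPM (log2 fold change -2.48 and 2.81). Il10ra was 16.6, 12.7 and 13.8 CPM in SB2 and 38, 40.4 and 27.2 CPM in BS6, against 5.6 to 8.21 CPM (log2 fold change -0.99, just under the threshold, and 2.59, called). The former passed under upper-quartile scaling (-1.12), by total counts (-1.09), without a filter (-1.03), in 1 fit of all 12 libraries (-1.01), without SB2 replicate 2 (-1.08) or 3 (-1.02) and without SB4 replicate 2 (-1.08).

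Of 4 further receptor chains, Il3ra and Il20rb were lower in SB4 than in SB2 and higher in BS6 than in BS2, while Il12rb1 and Il12rb2 were not. Il3ra, the ligand-binding chain for interleukin-3, was 9.11, 11.7 and 9.04 CPM in SB2 and 16.6, 12.5 and 10.9 CPM in BS6, against 1.02 to 1.56 CPM in the brain-rich libraries (log2 fold change -2.98 and 3.57, both called). Il20rb, a chain of the receptors for interleukins 19, 20 and 24, was 1.65, 3.4 and 1.59 CPM in SB2 and 3.98, 5.74 and 2.61 CPM in BS6, against 0 to 0.472 CPM. Its log2 fold changes were -3.91 (-5.79 without SB4 replicate 2 and -3.31 without SB4 replicate 3) and 4.13 (5.25 without BS2 replicate 1), both called. Il12rb1, shared by the receptors of interleukins 12 and 23, was called in neither comparison, at 1.22 to 2.13 CPM in SB2, 2.1 to 3.2 CPM in BS6 and 0.885 to 1.85 CPM in the brain-rich libraries (log2 fold change -0.14 and 0.91). The latter was called without BS6 replicate 3 (1.04, edgeR adjusted p = 0.046). Il12rb2 was called higher in SB4 (log2 fold change 1.87) at a mean of 1.56 CPM, and 40.0% of its exon bases overlap Serbp1 on the opposite strand. In BS6 against BS2 its value was -0.82 and not called, but it was called without BS6 replicate 1 (-2.0). In SB4 against SB2, Serbp1 ran the other way, with means of 343 CPM in SB2 and 260 CPM in SB4 (log2 fold change -0.40, SE 0.07, edgeR adjusted p = 0.000249). In BS6 against BS2, Serbp1 was at -0.08 (SE 0.09, edgeR adjusted p = 0.438). The part of Serbp1 reads in the Il12rb2 counts was not tested.

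BS6 replicate 2 stood apart from the other BS6 libraries. The summed level of 10 neutrophil markers was 28300 CPM there, against 1590 and 3780 CPM in replicates 1 and 3 and 1020 to 1790 CPM in SB2, and 3.23 to 11.9 CPM in SB4 and 1 to 2.83 CPM in BS2. The same library was lower than the other BS6 libraries in markers of osteoblasts and osteocytes (22500 CPM against 57900 and 83200), fibroblasts (25900 against 90900 and 103000) and osteoclasts (1520 against 2850 and 3360). Of the 32 interleukin genes at 5 CPM or more in that library, 7 were over 2 times as high as in each of the other BS6 libraries, or 21.9%, against 7.85% of all genes at that level. They were Il1r2, Il18rap, Il16, Il18r1, Il17ra, Il6ra and Il18bp. Il1r2, the decoy receptor of interleukin-1 known from neutrophils, differed most: 91 CPM in replicate 2 against 5.02 and 4.45 CPM, a ratio of 19.2 to the mean of the others. It was 8.94, 4.6 and 3.54 CPM in SB2 and 0.111 to 0.87 CPM in the brain-rich libraries. Its change in BS6 against BS2 was 6.17 (SE 1.58, edgeR adjusted p = 0.0111), or 3.34 without that library (adjusted p = 6.12e-06). In SB4 against SB2 it was -3.77 (SE 0.63, adjusted p = 0.000633), or -5.09 without SB4 replicate 2. All 7 genes were called by edgeR in BS6 against BS2 with and without the library, while DESeq2 gave no adjusted p for Il1r2 with all libraries and called the other 6. BS6 replicate 2 was also the highest of its group in markers of mast cells and basophils (283 CPM against 80.7 and 175) and oligodendrocytes (302 against 136 and 123). The same held for neurons (221 against 170 and 169) and for macrophages and monocytes (2830 against 2620 and 1610). It was the lowest in markers of microglia, astrocytes, B cells and endothelium. The part of neutrophils, of these other cell types, or of the lower share of bone transcripts, in these values was not tested.

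**Figure D4:**
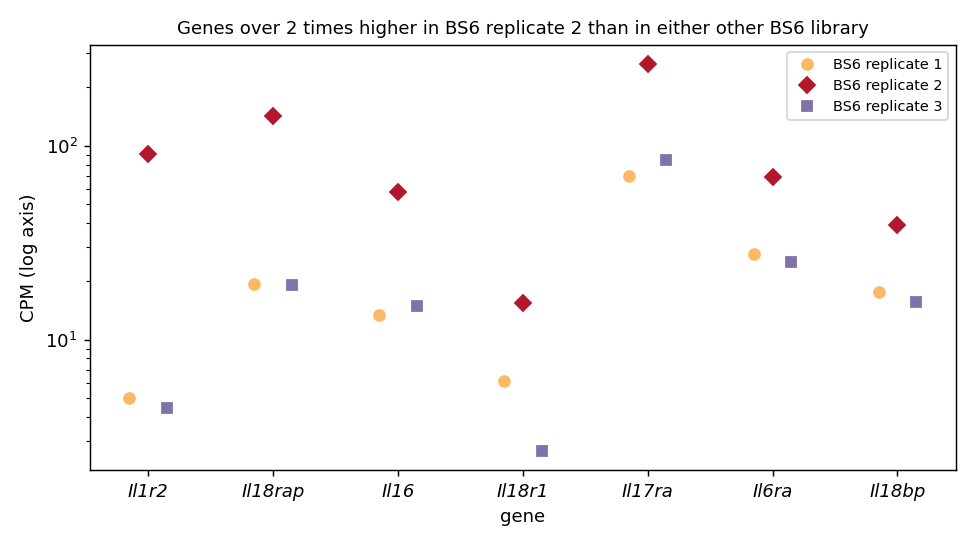
CPM on a log axis of the 7 interleukin genes that were over 2 times higher in BS6 replicate 2 (diamonds) than in replicates 1 (circles) and 3 (squares). Il1r2 shows the widest gap, 91 against 5.02 and 4.45 CPM.

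The comparison of SB2 with BS6 sets the bone-rich groups side by side. Of 46 genes tested, 2 were higher in SB2 (Il6 and Il33), 2 were lower (Il2rb and Il10ra) and 42 were not called. Of all 16329 genes, 0.741% were called higher and 1.11% lower. The libraries did not overlap for 7 genes higher in SB2 and 10 lower, against 20.3% and 17.8% of all genes. The log2 fold changes were 4.24 for Il6 (SE 0.80, edgeR adjusted p = 0.0407), 1.15 for Il33 (SE 0.16, adjusted p = 0.0306), -1.69 for Il2rb (SE 0.30, adjusted p = 0.0365) and -1.31 for Il10ra (SE 0.19, adjusted p = 0.0311). None of the 4 calls was left without SB2 replicate 1, 2 or 3 or without BS6 replicate 1 or 3, where adjusted p-values ran from 0.0503 to 0.181. The folds kept their sign over all 6 such fits, from 1.06 to 1.29 for Il33, -1.87 to -1.47 for Il2rb, -1.47 to -1.19 for Il10ra and 3.37 to 4.70 for Il6. Il6 was also lost without BS6 replicate 2 (adjusted p = 0.0976), and its lowest value was that without SB2 replicate 1. With the replicate number as a block, all 4 calls were lost (edgeR adjusted p = 0.0995 for each). DESeq2 called 5 higher and 8 lower. It added Il1b, Il11 and Il13ra2 to those higher in SB2, and Il16, Il18r1, Il18rap, Il27, Il6ra and Il7r to those lower. The share of all genes that DESeq2 called is not given here. Il1b was at 1.42 (SE 0.47) and Il11 at 2.85 (SE 0.99) in edgeR, with adjusted p of 0.116 and 0.125. The labels of these groups differ in the injured tissue, the day and the tissue named, which cannot be told apart.

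In SB4 against BS2, the brain-rich groups, none of 31 genes tested was called by edgeR or by DESeq2. At an unadjusted p under 0.05 there were 2, Il17ra and Il4, against 11.9% of all genes. Of all 16278 genes, 0.086% were called higher and 0.0614% lower. Log2 fold changes ran from -0.28 to 0.61, and the lowest edgeR adjusted p was 0.239, for Il4 at 0.25 (SE 0.09). Il34 (-0.01, SE 0.08), Il1rapl1 (-0.02, SE 0.09), Il6st (0.08, SE 0.07) and Il18 (-0.10, SE 0.11) had narrow errors around 0. A missed threshold does not show that levels were equal. The libraries of the groups did not overlap for 1 of the 31, higher in SB4, and for 0 on the lower side, against 10% and 6.51% of all genes. Il1b, at 0.128 to 0.726 CPM, and Il6, at 0 counts, were too low here to be tested.

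The difference between the changes over time was tested in a fit of all 12 libraries, as SB4 minus SB2 less BS6 minus BS2. Of 48 genes, 38 were called on the negative side, 7 on the positive side (Il1rapl1, Il4, Il17d, Il12rb2, Il1rap, Il34 and Il1a) and 3 were not called. Of all 18068 genes, 37.8% were on the negative and 35.8% on the positive side. Since SB2 and BS6 are the bone-rich groups, this contrast sets bone-rich against brain-rich libraries.

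Genes of the same pathways that carry other names were counted in the same way. The counts stand beside 28.6% of all genes lower and 27.8% higher in SB4 against SB2, and 29% higher and 26.5% lower in BS6 against BS2. Of cytokines and receptors under other names, 14 of 17 tested (82.4%) were lower in SB4 than in SB2 and 1 was higher, and 16 of 18 (88.9%) were higher in BS6 than in BS2 and none was lower. Osmr, the oncostatin M receptor that pairs with Il6st, was 143, 127 and 156 CPM in SB2, 84.5, 80.6 and 88.5 CPM in BS6 and 3.72 to 8.15 CPM in the brain-rich libraries (log2 fold change -4.56 and 4.07). Lif, another gp130 ligand, was 25, 8.52 and 10.4 CPM in SB2 and 9.78, 3.26 and 10.2 CPM in BS6, against 0 to 0.381 CPM. Csf2rb, the common beta chain for interleukins 3 and 5, was 64.8, 61.3 and 52.6 CPM in SB2 and 76.4, 270 and 63.9 CPM in BS6, against 0.78 to 4.02 CPM. Csf2rb has a close paralogue, Csf2rb2, with which reads can be shared.

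Downstream of the interleukin-1 receptors, 7 of 16 genes of the MyD88 branch (43.8%) were lower in SB4, 2 were higher and 7 were not called, and 8 (50%) were higher in BS6, 1 was lower and 7 were not called. Over all genes, 28.6% were lower in SB4 and 29% higher in BS6. Myd88 itself was 43.1, 40.4 and 41.6 CPM in SB2 and 32.5, 85.2 and 37.9 CPM in BS6, against 2.47 to 3.9 CPM (log2 fold change -3.73 and 4.12), whereas the ubiquitin ligase Traf6 was under the fold threshold in both (-0.77 and 0.92). Of 17 genes of the JAK and STAT list, 11 (64.7%) were lower and 2 higher in SB4, and 11 (64.7%) were higher and none lower in BS6. Socs3, the feedback inhibitor of gp130 signalling, was 116, 83.4 and 97.1 CPM in SB2 and 36.3, 63.8 and 42.3 CPM in BS6, against 2.77 to 4.42 CPM (log2 fold change -4.78 and 3.75). Stat3, the main factor below gp130, was at -2.25 and 2.19, and Jak1 was level at 0.06 (SE 0.07) and -0.07 (SE 0.11). Of the genes that process interleukin-1 and interleukin-18 or shed receptors, 8 of 9 (88.9%) were lower in SB4 and 8 of 9 (88.9%) higher in BS6. Casp1, which cleaves both ligands, was 12.3, 11.2 and 12.3 CPM in SB2 and 20.4, 30.4 and 13.9 CPM in BS6, against 2.41 to 5.37 CPM (log2 fold change -2.09 and 2.48). In SB2 against BS6, 1 gene of these 4 lists was called (Cntfr, lower in SB2), and in SB4 against BS2 none was.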

How the data were processed

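RNA from tissue of injured mice was enriched for poly(A) and sequenced in paired-end mode in 12 libraries. After quality control of the reads by fastp and alignment to mm10 by HISAT2 2.1.0, the authors deposited whole-number counts per gene symbol without normalization. The counting program, its annotation and its use of strand are not given in the sources used here, nor is it known whether the counts were taken before or after the study's batch correction. Overlapping, antisense and paralogous genes are therefore uncertain. Groups came from the sample titles. No column of another sample was present (0 columns).

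Each comparison was fitted with edgeR 4.0.16 in R 4.3.3 on the 6 libraries of its 2 groups, over all genes that passed filterByExpr with a minimum count of 10, with TMM factors and the robust quasi-likelihood test. P-values were adjusted by Benjamini-Hochberg over all genes tested, and calls needed both an adjusted p below 0.05 and a log2 fold change beyond 1 in either direction. Standard errors were derived from each log2 fold change and its F statistic, as the size of the former over the root of the latter. The difference between the changes over time came from a fit of all 12 libraries. The study used DESeq2 with these thresholds, and DESeq2 1.42.0 was run as an alternative. Other alternatives were library scaling by RLE, by the upper quartile or by totals alone, dropping the filter or asking for 10 counts in each library, a replicate block, 1 fit of all 12 libraries and leaving out each library, which was extended after seeing the data to every interleukin gene tested over time and to the Il27 ratio.

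CPM used the TMM factors of all 12 libraries, and RPKM divided them by the union of annotated exons (GENCODE M21, in which all 59 genes were found). Where a group had 0 counts, the fold was computed against 3 counts per library, and where it had 1 to 3, an exact 95% counting interval is given. Intervals and limits cover counting error only. No 2 libraries of a group held identical values. The fit was tested on simulated counts. In these, all genes had the same spread between libraries and a small part of the genes changed, unlike in the data. The simulation therefore does not show how the fit performs on these libraries. Genes were named under their role when they reached 1 CPM in a group, and full statistics were given for up to 6 called genes per direction with the largest change, at 5 CPM or more and with groups that did not overlap, and for a list of main interleukin genes. Members, lists and rules were chosen with earlier results of these data known. Genes outside the table were not analysed here.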

Additional observations from a re-analysis of the deposited data

Results flagged for a closer look

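Of the 48 interleukin genes tested for it, 45 had a change from SB2 to SB4 that differed from their change from BS2 to BS6 by the test of the difference itself (edgeR, 12 libraries, adjusted p under 0.05 and absolute difference over 1). The values are log2 differences of the change SB4 minus SB2 less the change BS6 minus BS2. Since SB2 and BS6 are the bone-rich groups, these values set bone-rich against brain-rich libraries. They cannot be read as different courses over time, because the day and the tissue content cannot be told apart. The difference was negative for 38 genes and positive for 7. Of all 18068 genes tested, 37.8% were called on the negative and 35.8% on the positive side.

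The widest negative differences were Il18rap -17.59, Il6 -17.02, Il1rl1 -14.34, Il2rb -11.73, Il18r1 -11.30, Il13ra2 -10.99, Il1b -10.88, Il1r2 -9.95 and Il2rg -9.94. In the range from -9 to -5 were Il13ra1 -8.86, Il1rl2 -8.55, Il27ra -8.48, Il4ra -8.42, Il7 -8.16, Il20rb -8.06, Il1r1 -8.01, Il16 -7.94, Il2ra -7.57, Il15 -7.42, Il17rc -6.66, Il3ra -6.57, Il21r -6.42, Il11ra2 -5.87, Il20ra -5.34, Il10rb -5.31, Il33 -5.26, Il6ra -5.09 and Il7r -5.05. Closer to 0 were Il6st -4.86, Il11 -4.62, Il11ra1 -4.29, Il10ra -3.60, Il18bp -3.43, Il17ra -3.41, Il12a -2.09, Il15ra -2.05, Il17rd -1.60 and Il12rb1 -1.07. The positive differences were Il1rapl1 16.14, Il4 6.24, Il17d 4.84, Il12rb2 2.68, Il1rap 2.60, Il34 2.08 and Il1a 1.98.

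The adjusted p ranged from 4.43e-11 for Il6st to 0.0477 for Il12rb1. The values of Il18rap, Il6, Il1rapl1, Il2rb, Il18r1, Il13ra2 and Il20ra rest on a group with 3 counts or fewer, so that their size depends on how the fit treats low counts. Groups of 3 libraries are too small for a test of single outlying libraries.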

How the results depend on the processing

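Upper-quartile scaling shifted the median of all genes by -0.13 in SB4 against SB2, where 5 genes were called higher and 34 lower. Over the fits that left out 1 library, SB4 against SB2 gave 5 to 6 genes higher and 31 to 34 lower, BS6 against BS2 gave 33 to 36 higher and 5 to 6 lower, and the difference between the changes gave 7 positive and 38 to 41 negative. Requiring at least 10 counts in every library left 27 genes tested in SB4 against SB2, 16 of them lower, and 25 in BS6 against BS2, 17 of them higher, since genes near 0 in a group were then not tested. The shares of all genes called under the settings of this section are not given here. The counts therefore do not show how the interleukin genes stood against all genes under those settings.

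SB2 against BS6 depended on the setting: 5 genes higher and 8 lower with DESeq2, 4 and 7 in 1 fit of all 12 libraries, 1 higher with at least 10 counts in every library, and from 0 to 2 higher and 0 to 3 lower when 1 library was left out. With the replicate number as a block, 0 genes were higher and 0 lower there (adjusted p = 0.0995 for Il6, Il33, Il2rb and Il10ra). The cause was not tested. No pairing of the libraries by number was seen. Deviations of same-numbered libraries correlated from -0.14 to 0.11, and not every library correlated best with its own number in any comparison. With 3 libraries per group, such a check cannot exclude a pairing. The block left the 6 higher and 31 lower genes of SB4 against SB2 as counts, and in BS6 against BS2 Il1a was lost (adjusted p = 0.0513). The Il6 call in SB4 against SB2 was lost without a filter (adjusted p = 0.0693). At this depth, genes under the 0.163 to 0.218 CPM that 3 counts stand for could not be told from absent.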
